A study of Mus musculus with 11 samples.

Results

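The miR-21a hairpin gave rise to 2 of the 592 miRNAs listed in a small RNA sequencing data set of murine embryonic stem (mES) cells, the 5p arm (mmu-miR-21a-5p) and the 3p arm (mmu-miR-21a-3p). Both were found by name and both are described here. The data comprise 11 libraries of C57BL/6 male mES cells. Of these, 5 were from Trim-/- cells and 6 were from Trimfl/fl cells, in which the last exon of both alleles of Trim71 is flanked by loxP sites. Per the labels, Trim-/- cells were derived from Trimfl/fl cells by 500 nM 4-hydroxytamoxifen (4-OHT) over 2 days, followed by culture for at least 7 days, whereas the study's methods give a lower dose and a shorter culture. Per these methods both genotypes carry the tamoxifen-inducible Cre in the Rosa26 locus, and control cells received the vehicle DMSO. Trim71 mRNA is not part of miRNA data, so that the deletion could not be checked here. All cells were grown in FCS and LIF and were sorted magnetically for SSEA-1, an ES cell surface marker, before harvest. The cells are from 2 clones, 1 and E3, and the label "day" (1, 3, 4, 5 or 6) ties 1 Trim-/- and 1 Trimfl/fl library of the same clone, which gives 5 same-day pairs. Days 1, 5 and 6 hold clone 1, and days 3 and 4 hold clone E3. The labels do not say what the day counts, nor whether the libraries of a genotype are separate cultures, so that the spread between them may be technical.

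A miRNA hairpin is cut into a duplex, one arm of which is loaded into Argonaute as the guide while the other is usually degraded. The guide then pairs with mRNAs mainly through its seed, bases 2 to 8 from its 5′ end, and lowers their translation and stability. miR-21 is transcribed from the 3′ end of the gene for the vacuole membrane protein Vmp1 and also from a promoter of its own. Its 5p arm is the guide, is abundant in most cultured and differentiated cells, is induced by STAT3 and AP-1, and is known for repression of Pdcd4. Trim71 is an RNA-binding protein of the Trim-NHL family and a conserved target of let-7.

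The mature sequences are shown because the arms differed on day 5 and because 2 related miRNAs, miR-21b and miR-21c, were listed as well. They are from RefSeq (GRCm38.p6), with the seed in capitals.
miR-21a-5p: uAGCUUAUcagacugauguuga
miR-21a-3p: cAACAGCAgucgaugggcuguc
miR-21b: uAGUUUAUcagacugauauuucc
miR-21c: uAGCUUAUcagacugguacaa

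The Mir21a hairpin is 92 bases long and is located at chr11:86584067-86584158 on the minus strand. The 5p arm occupies its bases 18 to 39 (chr11:86584120-86584141) and the 3p arm its bases 56 to 77 (chr11:86584082-86584103). In the GENCODE annotation of the same build the whole hairpin lies in an exon of Vmp1 (transcript Vmp1-201, exon at chr11:86583865-86585451), within the untranslated part of that exon (chr11:86583865-86585310), on the same strand. Mir21b is on chromosome 3 and Mir21c on chromosome 8. Counted from the 5′ end of miR-21a-5p, miR-21b differs by C4U, G18A, G21U and A22C over the 22 bases compared, and therefore has another seed. miR-21c matches the first 15 bases, seed included, and differs by A16G, G18A, U19C, U20A and G21A. Among the 463 listed miRNAs that could be matched to RefSeq by name, miR-21c was the 1 other miRNA with the seed AGCUUAU, and 0 shared the seed of the 3p arm.

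Values are normalized read counts that the authors corrected for batch and set to 1 where they had fallen below 1, here called the floor. Library totals ranged from 3751518.9 to 5551714.8 in Trim-/- and from 2742673.0 to 4332525.2 in Trimfl/fl cells. The number of raw reads per library is unknown, so that no interval from counting can be given. After the correction, the Trim-/- and the Trimfl/fl value of a day add up to the same sum on every day without a floor value. This held to within 0.1% for 591 of the 592 miRNAs. A value at the floor was therefore recovered as that sum minus its same-day partner, with the sum taken to hold on that day too. In all, 121 values of 106 miRNAs were at the floor. Because the sum is constant, the libraries of a pair mirror each other, and the 10 paired values of a miRNA hold 5 independent differences. The sixth Trimfl/fl library (day 2) equals the mean of the other 5 before the floor, 177476 for miR-21a-5p and 57.0 for miR-21a-3p, and was left out. miR-21a was selected on its measured level and its genotype difference on day 5 in these same libraries, so that its values are given as a description and without a p.

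miR-21a-5p was among the most abundant miRNAs of these cells. Its mean over the 10 paired libraries was 316384 and ranked 3rd of 592, where the median miRNA had a mean of 142. This mean holds the floored value of day 5. With the value before the floor the mean was 295938 and ranked 4th, after miR-293-3p. In Trim-/- cells its normalized read count was 355962, 328903, 262646 and 328152 for days 1, 3, 4 and 6, and 796335 for day 5. In Trimfl/fl cells it was 235913, 262973, 329230 and 263723 for days 1, 3, 4 and 6, and 1 for day 5. Outside day 5 all 8 values thus lay between 235913 and 355962, and the genotypes overlapped. Before the floor every pair has the same mean after the correction, so that steady levels across days are imposed by it. Levels, ranks, shares and ratios given without day 5 may therefore still depend on day 5. On day 5 the Trim-/- library held the highest value of all, and the Trimfl/fl library was at the floor.

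**Figure D1:**
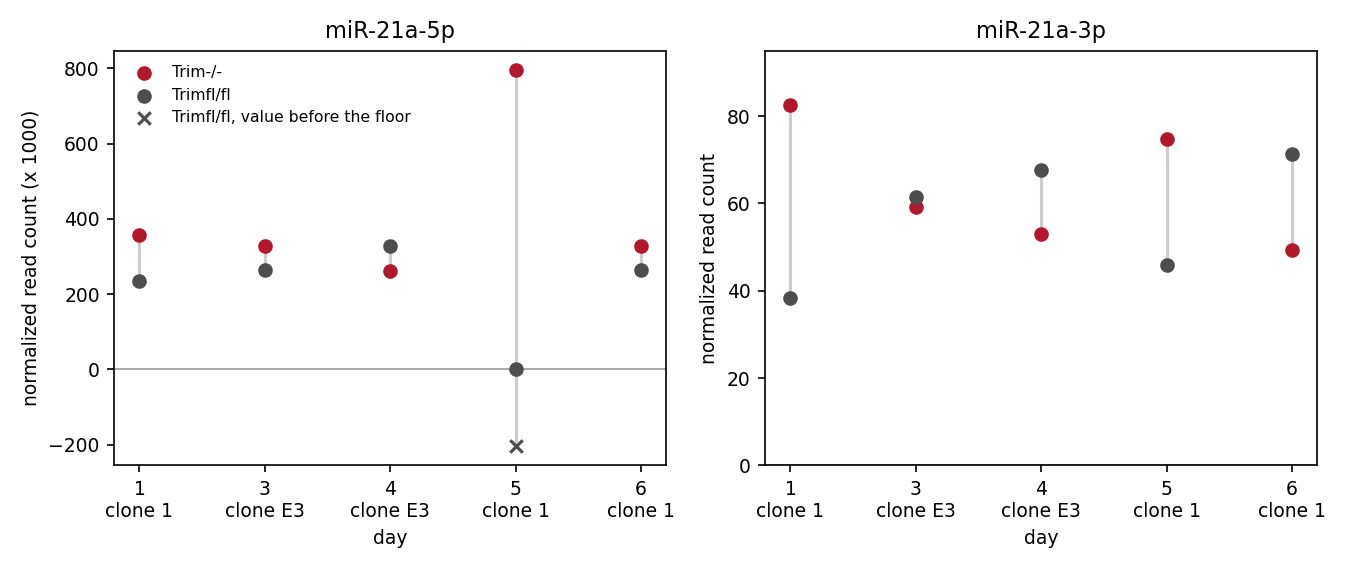
Normalized read count of miR-21a-5p (left) and miR-21a-3p (right) in the 10 paired libraries, by day and clone; each point is 1 library, grey lines join same-day libraries and the cross is the value before the floor. The 5p arm of the Trimfl/fl library of day 5 stands at 1 (-204460 before the floor), whereas both 3p values of that day, 74.8 and 46.0, are within the range of the other days.

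By rank within a library, miR-21a-5p was 4th on days 1, 3, 4 and 6 and 2nd on day 5 in Trim-/- cells. In Trimfl/fl cells it was 4th, 4th, 2nd and 3rd on days 1, 3, 4 and 6, and 572nd on day 5. The last rank is shared by the 21 values at the floor in that library and is set by their number. Without day 5 it took 7.64 ± 0.51% of the library total in Trim-/- and 6.92 ± 0.55% in Trimfl/fl cells (SD, n = 4 each). On day 5 these shares were 14.3% and 3.65e-05%, the latter set by the floor. The miRNAs of highest mean beside it were miR-292-5p (884571), miR-291a-3p (442220), miR-293-3p (303649) and miR-293-5p (189560), all from the miR-290 to miR-295 cluster, the main ES cell miRNA cluster. None of these 4 was at the floor in any library, and the lowest of their Trimfl/fl values on day 5 was 110465 for miR-293-5p. Among the other miRNAs with a floor value, the most abundant was let-7g-5p, whose constant same-day mean (the mean of both values of a pair, before the floor) was 12267 against 295938 for miR-21a-5p.

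**Figure D2:**
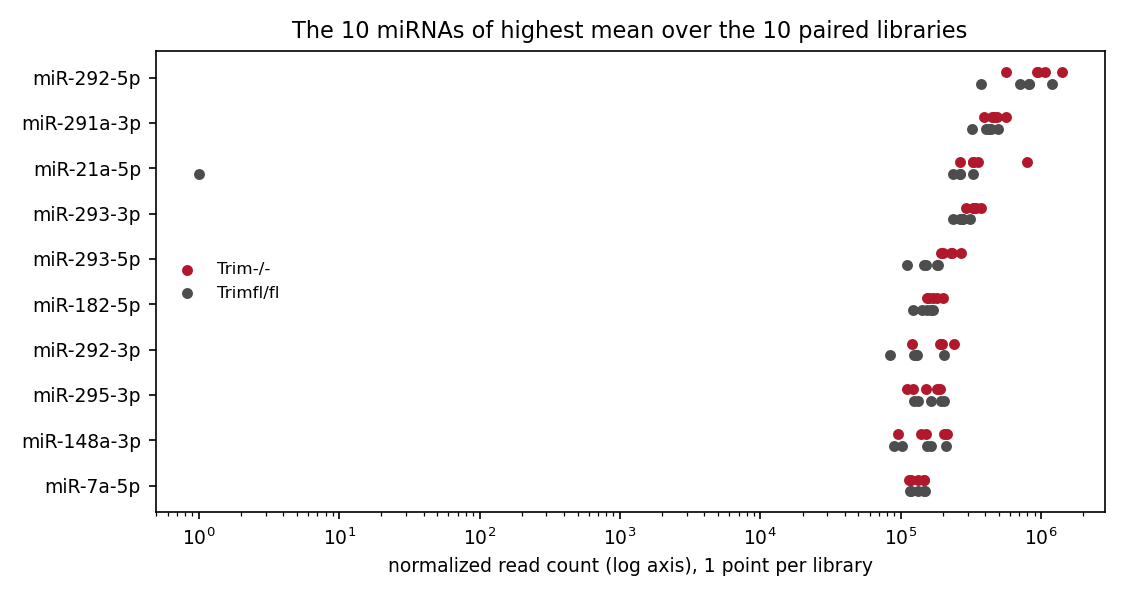
Normalized read counts (log axis) of the 10 miRNAs with the highest mean, 1 point per paired library and genotype. The single point at 1 is miR-21a-5p in Trimfl/fl cells on day 5, and the lowest other point is 83465.5, miR-292-3p in Trimfl/fl cells on the same day.

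To compare the genotypes within a day, the Trimfl/fl value before the floor was subtracted from the Trim-/- value, and the difference was divided by the constant same-day mean. For miR-21a-5p the difference in normalized read count was 120049, 65930, -66584 and 64429 for days 1, 3, 4 and 6, or 0.41, 0.22, -0.22 and 0.22 of the mean. On day 5 it was 1000794.5, or 3.38 of the mean. The Trim-/- value was thus higher on 4 of 5 days, which was the case, or more, for 27.7% of all 592 miRNAs. By clone, all 3 pairs of clone 1 were higher in Trim-/- cells, whereas of the 2 pairs of clone E3 1 was higher and 1 lower.

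The day 5 value before the floor was -204459.5 in Trimfl/fl cells, and a negative value has no meaning as a count. A correction that shifts both libraries of a day by the same amount keeps their difference and gives the constant sums seen here. If it was of this form, and as normalized counts before it cannot be negative, the Trim-/- library of day 5 must have held at least 1000794.5 normalized counts of miR-21a-5p. How many the Trimfl/fl library held cannot be told from the deposited values. In size relative to the mean, the day 5 difference of miR-21a-5p was the 2nd highest of 592, after miR-743b-5p (3.59), a miRNA with a same-day mean of 7.84. On the other days its signed difference ranked 116th, 169th, 370th and 195th.

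Day 5 differed from the other days in its library totals also beyond miR-21a-5p. The Trim-/- total of that day exceeded the Trimfl/fl total by 2809041.8, of which 28.3% was miR-21a-5p (796334 as deposited). A larger part was miR-292-5p, with 1400000 in Trim-/- and 371018 in Trimfl/fl cells on day 5. The ratio of the totals was 2.02, and 1.73 without miR-21a-5p. It was between 0.87 and 1.16 on the other days. Of the 20 miRNAs next in abundance, 17 were higher in Trim-/- cells on day 5, with a median difference of 0.29 of the mean and a highest of 1.49. On the other days 9 to 16 of them were higher, with medians from -0.08 to 0.19 and highest values from 1.03 to 1.36, so that by this count day 5 was close to day 6. Differences above 2 or below -2 of the mean were found for 19 and 7 miRNAs on day 5 and for 23 and 16 on day 6. Over all miRNAs the median difference was close to 0 on each day. The number of miRNAs at the floor did not set it apart, as it was 21 in the Trimfl/fl library of day 5 and 0 to 28 over the 10 paired libraries. Whether the gap in totals lay in the libraries or in the cells was not tested.

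Over all 5 days the mean of miR-21a-5p was 414400 ± 216256 in Trim-/- cells and 218368 ± 126816 in Trimfl/fl cells (SD, n = 5 each), a ratio of 1.90. With the value before the floor the Trimfl/fl mean was 177476 ± 216256 and the ratio 2.33. The mean same-day difference was then 236924 with a standard error of 193426. Without day 5 the means were 318916 ± 39681 and 272960 ± 39682 (n = 4 each), and the ratio was 1.17. The mean same-day difference was 45956 ± 79363 (SD, n = 4), less than the spread between days. In the limma fit on log2(value + 1) with day as a block, the log2 fold change was 3.90 with a standard error of 3.00, and 0.23 with a standard error of 0.28 without the day 5 pair. The first value is set by the floor, since day 5 alone enters it as 18.60 on the log2 scale.

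The 3p arm was 4903-fold less abundant than the 5p arm by their constant same-day means, the strongest dominance of 1 arm among the 179 hairpins with both arms listed. The next was miR-182 with 1921-fold, and the median was 8.56-fold. In Trim-/- cells miR-21a-3p had 82.5, 59.3, 53.0, 74.8 and 49.3 normalized counts for days 1, 3, 4, 5 and 6. In Trimfl/fl cells it had 38.3, 61.4, 67.7, 46.0 and 71.4 on the same days. The values of both genotypes overlapped, and its rank within a library was between 339 and 439. The Trim-/- value was higher on 2 of 5 days, days 1 and 5 of clone 1. It was lower on day 6, also of clone 1, and on days 3 and 4 of clone E3. The same-day differences were 0.73, -0.04, -0.24, 0.48 and -0.37 of the mean on days 1, 3, 4, 5 and 6. The means were 63.8 ± 14.3 and 57.0 ± 14.3 (SD, n = 5 each), a ratio of 1.12, and the limma log2 fold change was 0.17 with a standard error of 0.33. Without day 5 the ratio was 1.02 and the log2 fold change 0.04 with a standard error of 0.37.

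Calls needed a change of more than 1.5-fold together with p under 0.05 before adjustment. These thresholds were passed by 5.41% of the 592 miRNAs (32). As miR-21a was selected on these same values, no call is given for its arms. Of all miRNAs 0.845% (5) passed as higher and 4.56% (27) as lower in Trim-/- cells, and with libraries divided by their totals these were 2 and 48. After Benjamini-Hochberg adjustment 0 miRNAs had a p under 0.05 in limma, and 32 had an unadjusted p under 0.05. The groups of 5 overlapped for both arms, whereas they did not overlap for 11.5% of all miRNAs.

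The arms were furthest apart on day 5. There the 5p difference exceeded the 3p difference by 2.90 of the mean, the widest gap among the 179 hairpins, whose median gap was 0.61. Close to it on day 5 was miR-221, with 1.13 for the 5p and -1.71 for the 3p arm. On days 1, 3, 4 and 6 the gap of miR-21a ranked 115th, 104th, 173rd and 69th. The widest gaps on those days, of other hairpins, were 3.35, 2.44, 3.76 and 4.42. The number of 5p reads per 3p read of miR-21a was between 4317 and 6652 in Trim-/- and between 3694 and 6166 in Trimfl/fl cells on those days, with means of 5368 ± 992 and 4750 ± 1057 (SD, n = 4 each). On day 5 it was 10652 in Trim-/- cells, and 0.0218 in Trimfl/fl cells with the 5p arm at the floor. The ratio mixes 2 separately corrected rows and is given as deposited.

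**Figure D3:**
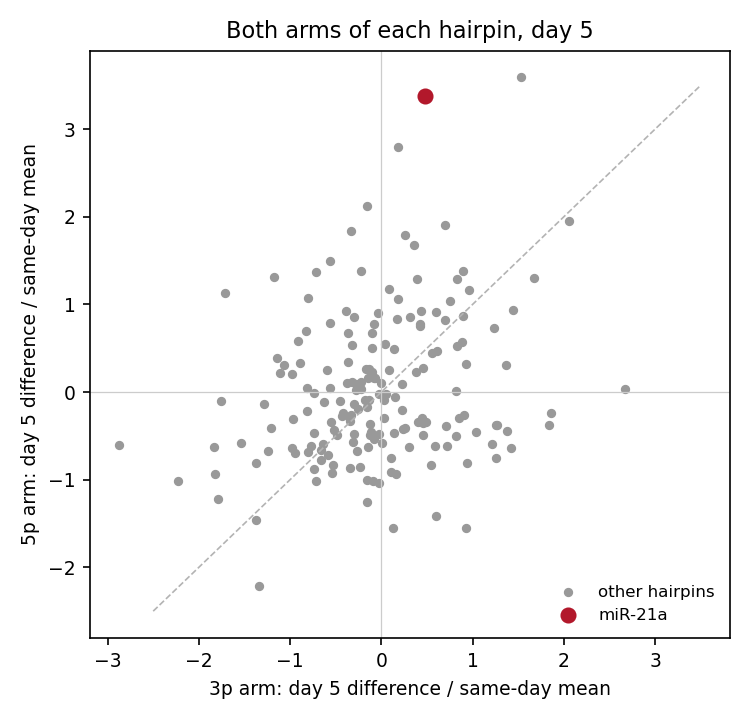
Day 5 difference (Trim-/- minus Trimfl/fl, divided by the same-day mean) of the 5p arm against that of the 3p arm, 1 point for each of 179 hairpins; the dashed line marks equal values. miR-21a lies at 3.38 and 0.48, the point furthest above the line.

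miR-21b, which differs from miR-21a-5p at 1 position of the seed and at 3 positions near the 3′ end, was low throughout, with a mean of 45.3 normalized counts and a rank of 420. It was 56.1, 46.1, 53.7, 84.3 and 44.4 in Trim-/- cells and 34.6, 44.6, 37.0, 6.36 and 46.3 in Trimfl/fl cells on days 1, 3, 4, 5 and 6. Its largest same-day difference was thus on day 5, as for miR-21a-5p, with 1.72 of the mean. That its highest and its lowest value fell on the same day follows from the constant sum. Across the 10 libraries it went with miR-21a-5p with a Pearson r of 0.95, and of 0.32 without day 5. The points share libraries and mirror each other within a day. miR-21b did not pass the test (log2 fold change 0.95 with a standard error of 0.58, limma unadjusted p = 0.154, adjusted p = 0.638), and without the day 5 pair the log2 fold change was 0.30 with a standard error of 0.27 (adjusted p = 0.753). As miR-21a-5p is 6527-fold more abundant by same-day means, reads of miR-21a-5p assigned to miR-21b and reads of miR-21b itself cannot be told apart in these values.

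miR-21c, which has the seed of miR-21a-5p, did not show the day 5 pattern. It had 62.6, 52.8, 74.3, 55.9 and 34.5 normalized counts in Trim-/- cells and 49.9, 59.6, 38.2, 56.5 and 78.0 in Trimfl/fl cells on days 1, 3, 4, 5 and 6. The day 5 difference was -0.01 of its mean, and r with miR-21a-5p was -0.08, and -0.43 without day 5. Its log2 fold change was -0.02 with a standard error of 0.35 (limma unadjusted p = 0.967, adjusted p = 0.991).

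**Figure D4:**
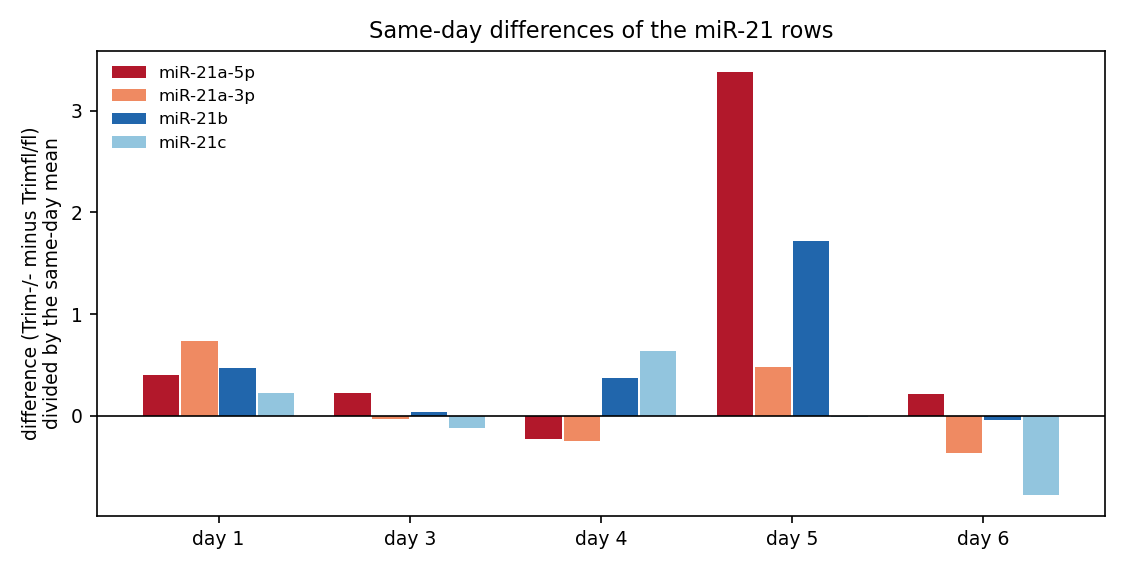
Same-day difference (Trim-/- minus Trimfl/fl) divided by the same-day mean for miR-21a-5p, miR-21a-3p, miR-21b and miR-21c, 1 bar per day. On day 5 miR-21a-5p reached 3.38 and miR-21b 1.72, whereas miR-21a-3p was at 0.48 and miR-21c at -0.01.

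The miRNAs with values most like those of miR-21a-5p were sought by Pearson's r over the 10 paired libraries, before the floor, among the 328 miRNAs with a mean of at least 100. They were miR-27a-5p (r = 0.99), miR-99b-3p (0.98), miR-10b-5p (0.97), miR-1839-5p (0.97) and miR-184-3p (0.97). The median r was 0.03, and 30 miRNAs had an r over 0.9. Day 5 held 97.3% of the squared deviation of miR-21a-5p, so that this likeness is mainly a likeness on day 5. For miR-27a-5p, which is cut from the hairpin of the 3p guide miR-27a, the Trim-/- and Trimfl/fl values of day 5 were 1015 and 25.8. Their day 5 differences were 1.90 for miR-27a-5p, 2.06 for miR-99b-3p, 2.30 for miR-10b-5p, 1.83 for miR-1839-5p and 3.16 for miR-184-3p, each lower than the 3.38 of miR-21a-5p. Of the 5, miR-99b-3p, miR-10b-5p and miR-184-3p were at the floor in the Trimfl/fl library of day 5.

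The mature sequences of 4 of them are shown because none of the 4 has the seed of miR-21a-5p.
miR-27a-5p: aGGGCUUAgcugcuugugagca
miR-10b-5p: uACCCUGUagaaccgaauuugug
miR-1839-5p: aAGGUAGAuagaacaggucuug
miR-184-3p: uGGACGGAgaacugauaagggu

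Without day 5 the 5 most alike were miR-100-5p (r = 0.97), miR-290b-5p (0.96), miR-466h-5p (0.95), miR-293-3p (0.95) and miR-361-3p (0.95), and 0 of them were among the first 5. miR-27a-5p was then 9th and miR-99b-3p 8th, with an r of 0.94 each, whereas miR-10b-5p was 43rd (0.77), miR-184-3p 49th (0.76) and miR-1839-5p 59th (0.72). The 3p arm of miR-21a went with its 5p arm with an r of 0.56 over the 10 libraries and 0.55 without day 5.

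**Figure D5:**
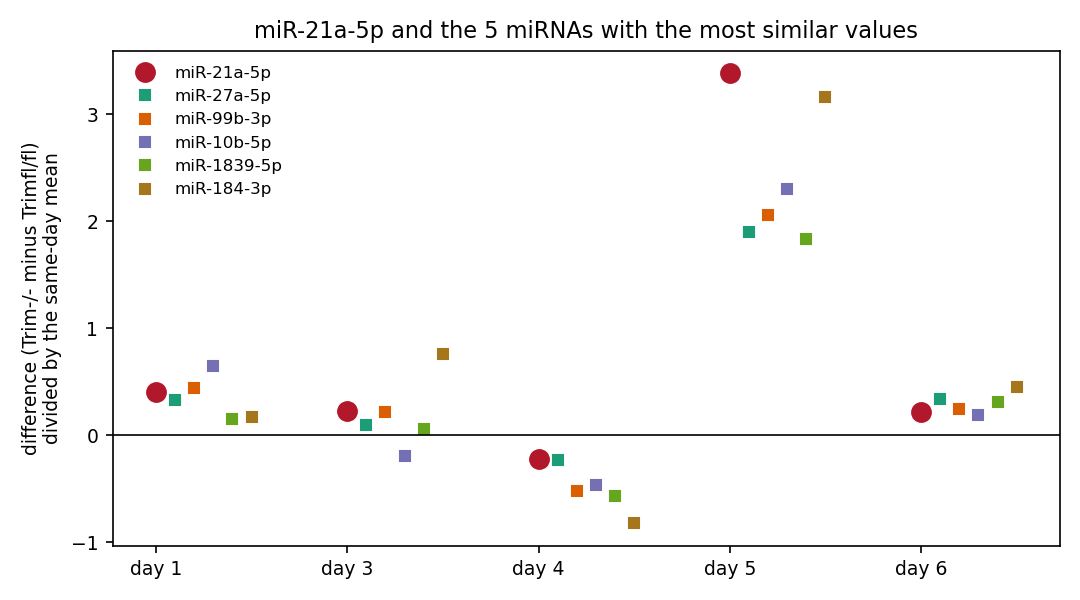
Same-day difference (Trim-/- minus Trimfl/fl) divided by the same-day mean for miR-21a-5p (large circles) and the 5 miRNAs with the highest Pearson r to it (squares), by day. All 6 are highest on day 5, between 1.83 and 3.38, and below 0 on day 4.

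miR-21 is known to be induced together with other miRNAs in inflammation, and it is abundant in fibroblasts. As the cells were grown in fibroblast-conditioned medium, miRNAs typical of these settings were compared with it. Of the 18 listed of 19 fibroblast miRNAs, 9 were higher in Trim-/- cells on day 5, as were 294 of all 592 miRNAs, with a median difference of -0.04 of the mean. On days 1, 3, 4 and 6 the count was 15, 9, 13 and 11 of 18, beside 285, 291, 298 and 302 of all 592. The summed level of the fibroblast miRNAs was between 22506 and 74582 in Trim-/- and between 36210 and 88286 in Trimfl/fl cells. On day 5 it was 68306 and 42562. Of their most abundant members the day 5 differences were 0.09 for miR-22-3p, 0.93 for miR-143-3p, 0.67 for miR-34c-5p and 0.04 for miR-152-3p. miR-10a-5p, miR-10b-5p and miR-100-5p were at the floor in the Trimfl/fl library of day 5, with differences of 2.08, 2.30 and 2.48, the nearest in the list to that of miR-21a-5p. Members lower in Trim-/- cells on day 5 included miR-221-3p (-1.71), miR-29a-3p (-1.22), miR-31-5p (-0.87), miR-222-3p (-0.83) and miR-125b-5p (-0.79). The cells had been sorted for SSEA-1, which fibroblasts lack, and were grown on gelatin, and the part of fibroblast RNA in the level of miR-21a-5p was not tested.

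Of the 9 listed of 10 inflammation-induced miRNAs, 4 were higher in Trim-/- cells on day 5, again near the 294 of 592 for all miRNAs, with a median difference of -0.16. Of these 9 miRNAs, 8, 5, 5 and 6 were higher on days 1, 3, 4 and 6. Their summed level on day 5 was 7076 in Trim-/- and 2257 in Trimfl/fl cells, to which miR-9-5p contributed most. The day 5 differences were 1.39 for miR-9-5p, 1.23 for miR-146b-5p, -0.87 for miR-155-5p and 0.68 for miR-146a-5p, below the 3.38 of miR-21a-5p. Of the 21 listed of 24 ES cell miRNAs 7 were higher on day 5, with a median difference of -0.36. Those of highest mean were miR-292-5p (1.16), miR-291a-3p (0.01), miR-293-3p (0.17) and miR-293-5p (0.83). The summed level of the ES cell list was between 2148717 and 2998848 in Trim-/- and between 1593058 and 2438758 in Trimfl/fl cells. The genotypes were furthest apart in this sum on day 5, with 2998848 in Trim-/- and 1593058 in Trimfl/fl cells. The ES cell, inflammation and fibroblast lists thus had a negative median but a higher sum in Trim-/- cells on that day. Of the 7 listed of 10 neural miRNAs 4 were higher on day 5, with a median of 0.41, and the differences were 1.39 for miR-9-5p, 0.71 for miR-128-3p, -0.98 for miR-124-3p and 0.41 for miR-129-5p. In each of these 4 lists 0 members passed the thresholds over all days, in either direction, where 5.41% of all miRNAs did, so that the count says nothing particular about lists of this size. By log2 fold change over all days, 14 of 18 fibroblast, 7 of 9 inflammation, 9 of 21 ES cell and 5 of 7 neural miRNAs were higher. For all miRNAs it was 303 of 592, and the difference of the lists from this share was not tested. The median log2 fold change was 0.31, 0.24, -0.12 and 0.24 for the fibroblast, inflammation, ES cell and neural lists, beside 0.03 for all miRNAs. Without the day 5 pair these medians were 0.33, 0.34, 0.07 and 0.34, beside -0.02 for all miRNAs, so that the sign turned for the ES cell list.

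On chromosome 11 the listed miRNAs nearest to miR-21a were the arms of miR-301a, at 528.9 kb. The day 5 difference was 0.22 of the mean for miR-301a-5p and -1.11 for miR-301a-3p, and neither passed the test (limma adjusted p = 0.779 and 0.607). Among the miRNAs that could be placed, none lay nearer.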

How the data were processed

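Per the study's methods, 50 bp small RNA reads were trimmed with CASAVA 1.8 and FLICKR and aligned with Bowtie2 2.2.1 to miRBase v20 (mm10), whereas the labels name an mRNA library kit. The authors normalized counts with DESeq2, corrected them for batch in Partek 6.6, set values under 1 to 1 and kept miRNAs with a mean of at least 10 in 1 group or more. The deposited values are thus a signal, in normalized counts after correction, with unknown depth. All 592 rows and 11 value columns were read, and nothing was rescaled for the reported values. Members and lists were chosen with earlier results of these data known.

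Values before the floor were recovered from the constant same-day sums with Python 3.11.15 (pandas 2.3.3, numpy 2.4.6, matplotlib 3.10.9). limma 3.58.1 (R 4.3.3, empirical Bayes, no trend) was fitted over all 592 miRNAs on log2(value + 1) with genotype and day, with Benjamini-Hochberg adjustment. Day stood as a block because the labels put 1 library of each genotype and the same clone on each day, and the deviations of same-day libraries correlated negatively (-0.50, -0.56, -0.65, -0.49 and -0.41), as constant sums entail. The scripts were tested on simulated data. Besides both arms, the named miRNAs were any with the seed of an arm (miR-21c), the paralogues miR-21b and miR-21c, the 5 of highest mean, the 5 most alike by r (mean of at least 100) and up to 4 of highest mean per list. Neighbours on the chromosome, arm pairs, further floor values and the largest day 5 differences were named after their values were seen. Alternatives were other scalings, pseudocounts, pairings and filters, clone 1 alone and each pair left out. P-values measure the spread between these libraries only.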

Additional observations from a re-analysis of the deposited data

Results flagged for a closer look

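Among 19 sets of 5 values screened for a single value far from the others, 8 held one. As miR-21a was selected on its day 5 values, and miR-27a-5p for its likeness to them, these 8 are a description and are not set against the share of about 1 in 20 that chance gives in unselected groups. All 8 are values of day 5, and 7 of them are views of the same pair of libraries for miR-21a-5p. The gap of the extreme value to its nearest neighbour was 0.825 of the group's range for the level in Trim-/- cells (796335), 0.717 for the level in Trimfl/fl cells (1) and 0.825 for the same-day difference before the floor (1000794.5), where the critical value is 0.71. It was 0.834 for the percent of the library total in Trim-/- (14.3%) and 0.826 in Trimfl/fl cells (3.65e-05%). For the rank within the library it was 1 in Trim-/- (2nd) and 0.996 in Trimfl/fl cells (572nd). The level, percent and rank in Trimfl/fl cells are set by the floor. The eighth was the day 5 difference of miR-27a-5p (989.6 normalized counts), the miRNA most like miR-21a-5p, with 0.733. No value of miR-21a-3p stood apart in this way.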

How the results depend on the processing

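The log2 fold change of miR-21a-5p was above 0 under all 19 settings, from 0.22 to 6.50 (clone 1 alone), and with 1 pair left out it ran from 0.23 (without day 5) to 4.96. The log2 fold change of miR-21a-3p was below 0 under 3 of 18 settings, without day 1 (-0.06) and with libraries divided by their totals (-0.09) or by the totals without miR-21a-5p (-0.04), and ran from -0.06 to 0.34 with 1 pair left out. That of miR-21c changed sign without day 3 (0.02) or day 6 (0.27), ran from -0.25 to 0.27 with 1 pair left out, and was -0.28 both with libraries divided by their totals and in clone 1 alone. Without the replicate block of same-day pairs 101 miRNAs passed the thresholds in place of 32, and 116 with all 11 libraries. The block changed no call of miR-21b or miR-21c. The count was 50 with libraries divided by their totals (2 higher, 48 lower), 59 in clone 1 alone, 15 among miRNAs with a mean of at least 100, and 16 (without day 1) to 67 (without day 4) with 1 pair left out, and 19 without day 6; the cause was not tested beyond fewer samples or miRNAs. Ratios of means before the floor, the fits of miR-21b and the likeness without day 5 were added after seeing the data. Same-day correction, the floor and 5 independent differences limit all values.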
